A study of Mus musculus with 72 samples.

Results

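Mouse chromosome 6 carried 991 of the 17857 mapped reporters of the series (5.55%), and all of them are described here. They were chosen by their listed chromosome alone, so expression played no part in the choice. The pools mPGK-A to mPGK-F contributed 169, 178, 129, 163, 193 and 159 of these reporters. All 6 pools were EBRTcH3 mouse embryonic stem cells, in which the ROSA26 promoter drives a tetracycline-controlled transactivator, kept with leukemia inhibitory factor and the inhibitors PD0325901 and CHIR99021. All carried the same reporter, driven by the promoter of the mouse phosphoglycerate kinase gene (mPGK) and delivered by the piggyBac transposon. Every pool was grown from cells sorted for low eGFP signal, first for 5 days after the sort and then for 7 days as a small pool, so reporters of cells in the other sorted classes were not sampled. Each pool was finally divided between 2 cultures, kept apart for another 7 days, which are technical replicates and share the integrations of their pool. The labels give no other difference in treatment between the pools. No gene of the cells themselves was measured in the table used here, so markers of embryonic stem cells could not be examined.

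TRIP, the assay used, gives each reporter copy its own random barcode in the transcript, so that the output of many copies of 1 promoter can be read in parallel from a single pool. Chromosomes are made of gene-rich stretches of open chromatin and gene-poor stretches that often lie at the nuclear lamina, and the output of an inserted gene is known to depend on the stretch it lands in. PiggyBac inserts at TTAA sites and is known to favour open chromatin, and the places without insertions are described as well. The ROSA26 locus itself lies on mouse chromosome 6.

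A reporter is known only by its barcode, pool, position and strand. The barcodes below belong to some of the reporters that are described singly in the results. The first 5 are the group around the highest reporter of the chromosome, including 1 neighbour near its pool median, the next 5 are reporters without a single RNA read, and the last 4 are neighbours of unlike output.
mPGK-A at 39350093, minus strand: acgtatgctataatta
mPGK-D at 39350585, plus strand: cttagtgtttatactt
mPGK-C at 39351082, minus strand: gaacgctgcgatagtc
mPGK-F at 39384478, minus strand: gacacaagggtctaat
mPGK-E at 39395836, minus strand: cacaataggtcggcaa
mPGK-B at 129559426, minus strand: tcagtcgagtataacc
mPGK-B at 14440305, plus strand: ccgccatcacgataat
mPGK-F at 143745159, minus strand: tcatggcaacgaaaga
mPGK-C at 86362611, plus strand: aatgctctcctcaaat
mPGK-E at 24783062, minus strand: tccggttcatctaagc
mPGK-E at 50788996, minus strand: gcgttacatacaggtt
mPGK-F at 50789073, minus strand: taccataaattccact
mPGK-A at 143092751, minus strand: acctaataagcaaatt
mPGK-A at 143092752, plus strand: atgtctcaactttagc
The 14 barcodes are all 16 bases long, as were 964 of the 991. A further 8 had 15 bases and 19 had 17. The barcodes of 77 reporters also occurred in another pool.

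Expression is the log2 ratio of the share of a barcode in the RNA reads of a pool to its share in the DNA reads, averaged over both cultures, with the median of all reporters of the pool set to 0. A value of 1 is therefore a level 2-fold above the median reporter of the same pool. The listed barcodes summed to between 3386477 and 3693449 DNA reads and between 2880244 and 3508366 RNA reads per pool and culture. On chromosome 6 the median was 1601 DNA reads and 497 RNA reads per reporter, both cultures summed. The cultures ranked the reporters of chromosome 6 with Spearman correlations across reporters of 0.916 (mPGK-D) to 0.959 (mPGK-A), and the error SD of a single culture was 0.74 log2 units. The SD between reporters was 2.39 log2 units. The spread along the chromosome thus exceeded the spread between the cultures of a pool, which leaves out any difference between separately made pools.

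Identical reporters on chromosome 6 spanned a 200.4-fold range of expression from the 5th percentile (-4.40) to the 95th (3.25). The middle 50% spanned 7.70-fold. Above the median of their pool lay 471 reporters, and 520 lay below it. A level more than 2-fold above the pool median was found at 300 reporters, and one more than 2-fold below it at 342. More than 16-fold above lay 15 reporters (1.51%, against 2.47% over all chromosomes), and more than 16-fold below lay 65 (6.56%, against 6.48%). No RNA read was counted at 12 reporters (1.21%, against 1.03%). In edgeR's quasi-likelihood test of RNA against DNA counts with Benjamini-Hochberg adjustment over all 17857 reporters, 344 reporters of chromosome 6 had a ratio above that of the median reporter of their pool (34.7%, against 36.9% of all reporters). In the same test 366 were lower (36.9%, against 33.7%), and 710 were called in either direction (71.6%, against 70.6%). The shares called by this test are near those over the genome and are no result about the chromosome. The p-values rest on 2 technical replicates a pool and measure only the spread between them.

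Along the chromosome, high and low reporters came in alternating stretches. With the running median of 11 consecutive reporters of all pools, 30 stretches of at least 11 reporters on one side of 0 were found, here called domains. The 14 high domains held 391 reporters (39.5%) in 36.0 Mb, and the 16 low domains held 457 (46.1%) in 89.5 Mb. Low domains thus covered 61.3% of the 146.005 Mb between the first reporter at 3509997 and the last at 149515084, and high domains 24.7%. Low domains had a median length of 3.88 Mb and high domains one of 2.07 Mb. Reporters lay more thinly in low domains, at 5.10 per Mb against 10.9 per Mb in high ones. The other reporters lay in shorter stretches, 79 of them in 18 high ones and 64 in 17 low ones. Domains were drawn from the values, so their levels are descriptions without a test. An excess of calls on the side of a domain is built in for the same reason. Over all chromosomes 36.9% of reporters were called higher and 33.7% lower, the shares to set beside the counts below.

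**Figure D1:**
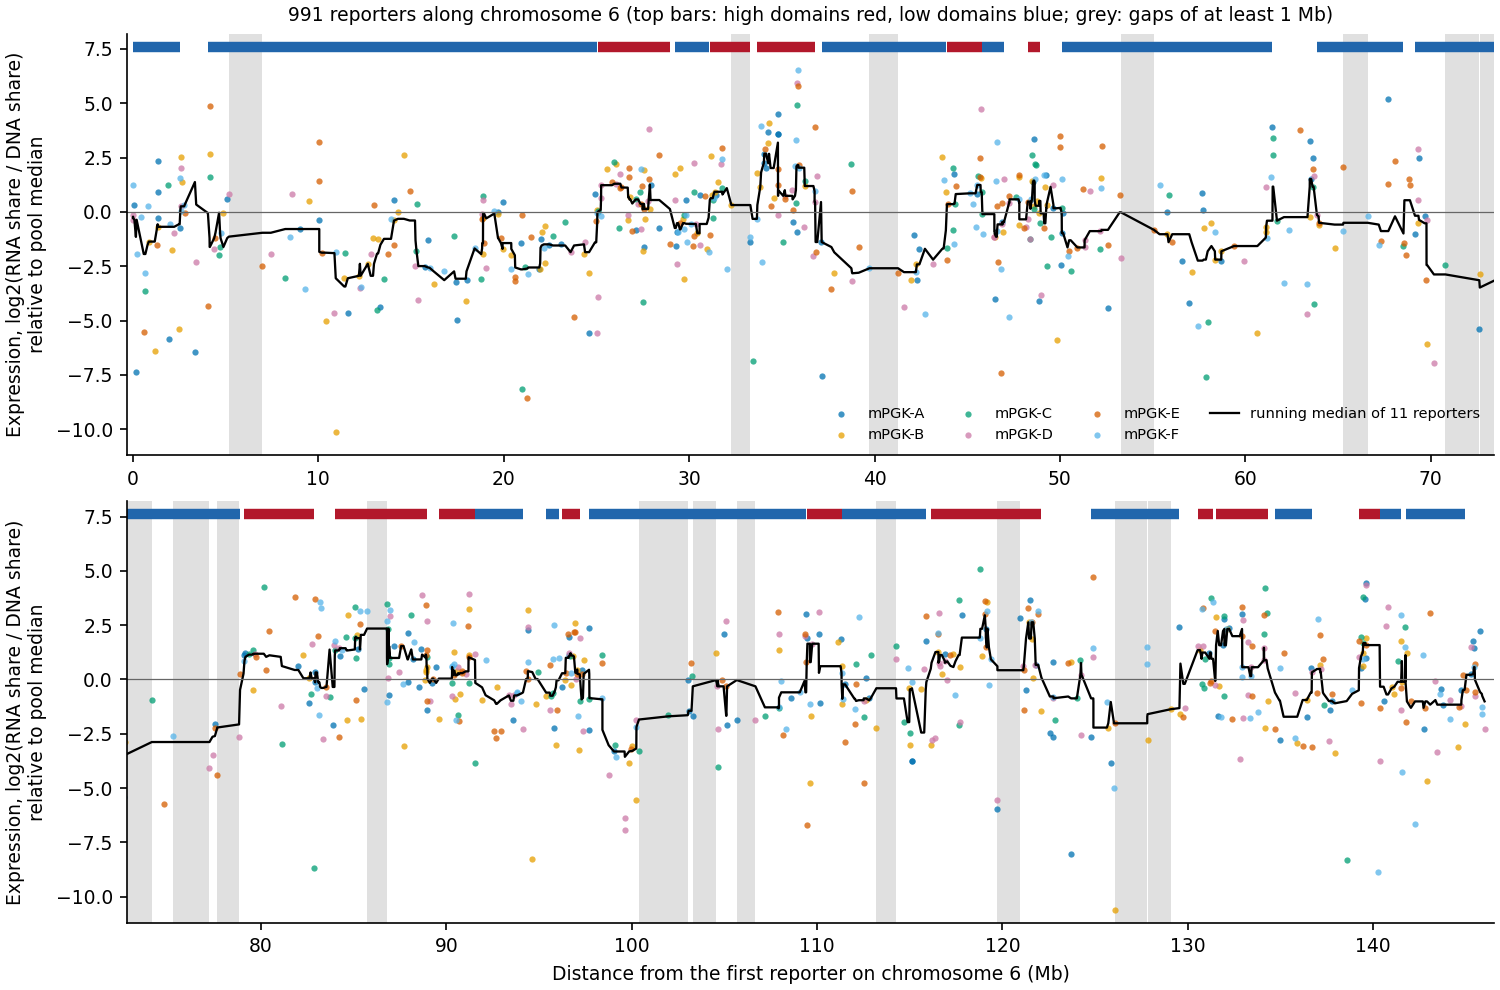
Expression of the 991 reporters (points, coloured by pool) against the distance from the first reporter in Mb, with the running median of 11 reporters as a line, high domains as red bars, low domains as blue bars and gaps of at least 1 Mb in grey. The longest blue bar, in the upper panel, spans 21.01 Mb, and 15 of the 18 grey gaps lie where the running median is below 0.

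Domains were mixtures with a shifted centre. In high domains 112 of the 391 reporters (28.6%) lay below their pool median, and in low domains 118 of the 457 (25.8%) lay above it. The mean went against the running median in 3 domains: the low domains chr6:67372739-72040194 (mean 0.19) and chr6:143877270-145013410 (mean 0.35) and the high domain chr6:112952137-114828773 (mean -0.22). All 6 pools were present in 12 high and 13 low domains. The means of all 6 pools lay on the side of the domain in 3 high and 5 low domains, so most domains held at least 1 pool that was absent or went the other way.

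The longest low domain, chr6:7550860-28557761, spanned 21.01 Mb and held 113 reporters with a mean of -1.73 ± 0.26 (SD of the 6 pool means). Its pool means were -1.84 in mPGK-A (20 reporters), -1.68 in mPGK-B (27), -1.98 in mPGK-C (16), -1.97 in mPGK-D (15), -1.28 in mPGK-E (21) and -1.81 in mPGK-F (14). Taken over the whole domain, all 6 pool means were low and close to each other. They were less alike within it. From 10 to 20 Mb, mPGK-E was at -0.31 relative to the rest of chromosome 6. The other pools lay there between -2.25 and -1.67. Of its reporters 70 (61.9%, against 33.7% over all chromosomes) were called lower and 11 (9.73%, against 36.9%) higher. More than 16-fold below their pool median were 15, against a share of 6.48% over all chromosomes. A single reporter in it, of mPGK-E at 7646972, lay more than 16-fold above the median, at 4.88. Among the 292 low domains of the 19 autosomes this one ranked 3 by length and 2 by number of reporters. Its extent depended on the cultures and the smoothing: from the second culture alone, with replicate 1 left out, the longest low domain of the chromosome held 62 reporters, and with a running median of 7 it held 44.

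The second low domain by length, chr6:101229669-112920055, spanned 11.7 Mb with 49 reporters at a mean of -1.10. Its pool means ran from -1.97 in mPGK-B to 0.16 in mPGK-E, the single pool above 0. The next, chr6:53606018-64972747, spanned 11.4 Mb with 50 reporters at -1.08, and its pool means all lay below 0, from -2.68 in mPGK-C to -0.43 in mPGK-E. The thinnest of the long domains was chr6:72661650-82385358, with 23 reporters in 9.72 Mb. Its mean of -2.22 was the lowest of any domain on the chromosome, and its pool means ran from -3.17 (mPGK-B, 3 reporters) to -1.23 (mPGK-A, 5 reporters). The domain chr6:40658214-47356993 held 21 reporters in 6.70 Mb at a mean of -1.98. There mPGK-C stood apart at 2.21 with a single reporter, while the other 5 pools lay between -3.35 and -0.99. Pools with so few reporters in a domain say little about it.

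High domains were shorter. The longest, chr6:119641605-125611588, spanned 5.97 Mb with 51 reporters at a mean of 0.94 ± 1.02 (SD of the 6 pool means). Its pool means were 0.90 (mPGK-A), 0.73 (mPGK-B), 2.22 (mPGK-C), -0.59 (mPGK-D), 1.93 (mPGK-E) and 1.62 (mPGK-F), so mPGK-D alone had a mean below 0. The median of its 11 reporters was 0.61, so most of them lay above 0 as in the other pools. The domain with the most reporters, chr6:87495237-92487944, held 54 in 4.99 Mb at a mean of 1.09. Its mPGK-B reporters were at the median (-0.04), and the other pools lay between 0.50 and 1.91. Of its reporters 33 (61.1%, against 36.9% over all chromosomes) were called higher and 5 (9.26%, against 33.7%) lower.

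The high domain chr6:28579614-32472362 followed the longest low domain directly and held 43 reporters in 3.89 Mb at a mean of 0.43. Its pool means ran from -0.39 (mPGK-A) to 0.92 (mPGK-F), and without mPGK-E its mean was 0.26. Its reporters had a median of 3390 DNA reads, above the 1601 of the chromosome, and the part of this in its level was not tested. The high domain chr6:82572304-86362611 was the least settled of the long ones. Its 21 reporters had a median of 1.04 and a mean of 0.34, which includes the mPGK-C reporter at 86362611 without RNA reads, and the mean was -0.02 without mPGK-E and -0.15 without the reporters in the lowest 10% of DNA counts.

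The 9 high and 11 low domains outside the 5 longest of each side included some in which all pools pointed the same way. Among them chr6:134034349-134869188 was high in all 6 pools, with 13 reporters in 835 kb at a mean of 1.52. Its pool means ran from 1.02 to 3.42, and 8 of its reporters were called higher and none lower. The high domain chr6:142744070-143854401 had 17 reporters at a median of 1.58, of which 11 were called higher. It also held the silent mPGK-F reporter at 143745159, and its mean was 1.07. The high domain chr6:135032030-137817177 was mixed, with 19 of 36 reporters called higher and 11 lower. On the low side, the first domain of the chromosome, chr6:3509997-6027775, held 25 reporters at a mean of -1.65, and the pool means all lay below 0, from -3.51 to -0.50. The low domain chr6:95075746-97645642 held 15 reporters at -1.37, 14 of them below their pool median, and its pool means lay below 0 as well. The last low domain, chr6:145252022-148437924, held 22 reporters of 5 pools at -1.31, with 13 called lower and 3 higher.

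The domain of the highest reporters, chr6:37188898-40303497, spanned 3.11 Mb and held 42 reporters with a mean of 1.83 ± 0.60 (SD of the 6 pool means), the highest of any domain on the chromosome. Its pool means were 2.33 (mPGK-A), 2.05 (mPGK-B), 1.34 (mPGK-C), 0.75 (mPGK-D), 2.10 (mPGK-E) and 2.03 (mPGK-F). All 6 pools were high in it. Of its reporters 30 (71.4%, against 36.9% over all chromosomes) were called higher and 3 (7.14%, against 33.7%) lower. It held 6 of the 15 reporters of the chromosome that lay more than 16-fold above their pool median. It ranked 9 by mean among the 281 high domains of the autosomes.

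Within this domain 4 of those reporters, from 4 different pools, lay within 45.3 kb of each other. The highest of the chromosome, mPGK-F at 39384478, had 56682 and 43798 RNA reads in the cultures against 1459 and 1358 DNA reads. Its expression was 6.65 and 6.41, a mean level 92.6-fold above its pool median. The reporter of mPGK-D at 39350585 had 43293 and 47698 RNA reads against 2211 and 2641 DNA reads. Its expression was 6.02 and 5.84, or 60.9-fold above the median. The reporter of mPGK-E at 39395836 was at 5.80 and 5.75 (54.7-fold) and that of mPGK-C at 39351082 at 4.23 and 5.61 (30.3-fold). Both cultures of all 4 reporters thus lay above 4, with 1 reporter on the plus strand and 3 on the minus strand. Next to them, at 39350093 and 492 bp from the mPGK-D reporter, a reporter of mPGK-A was at -1.38 and -0.43. It rested on 154 DNA reads and 32 RNA reads and did not differ from its pool median (adjusted p = 0.56, edgeR). The other reporters within 100 kb of the highest one were at 3.32 (mPGK-F, 39298194), 2.16 (mPGK-E, 39413729) and 2.03 (mPGK-F, 39452405). Without the 4 highest reporters, the remaining 38 of the domain had a mean of 1.42. The domain was drawn from these same values, so a mean above 0 in the remainder was largely built in.

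**Figure D2:**
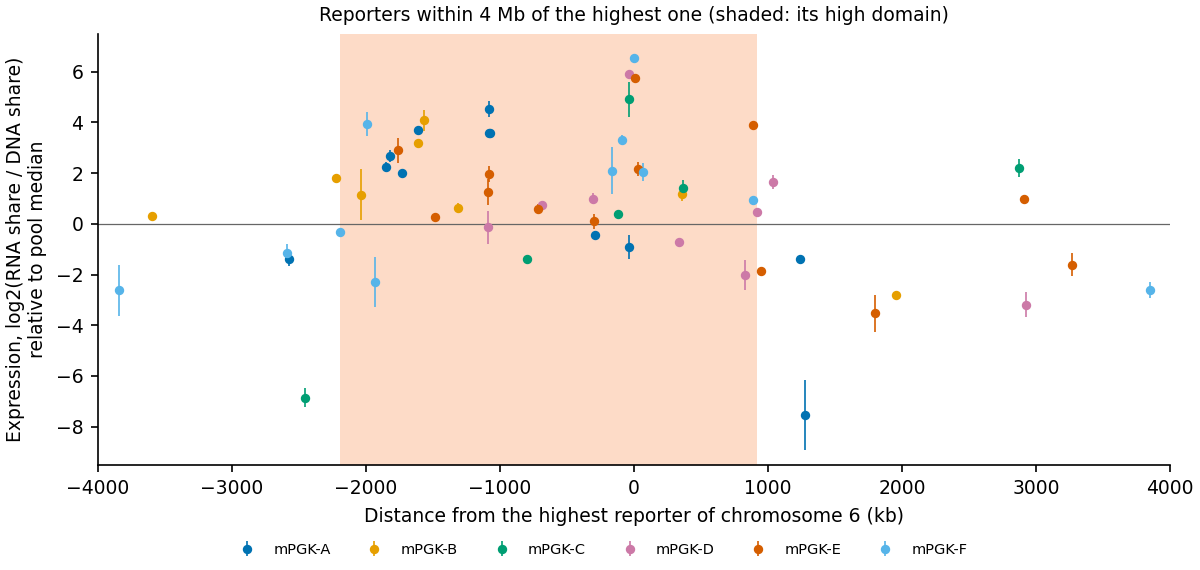
Expression of the reporters within 4 Mb of the highest reporter of the chromosome, against the distance from it in kb. Points are the mean of both cultures coloured by pool, bars reach to the value of each culture, and the shaded stretch is the high domain of 3.11 Mb. The 4 points above 4.9 near distance 0 come from 4 pools, and the point of mPGK-A below them is at -0.90.

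The other reporters among the 5 highest lay elsewhere on the chromosome. The reporter of mPGK-A at 71222500 (barcode ggtaaagcccgacaag, minus strand) was at 5.05 and 5.32, or 36.3-fold above the pool median, on 9333 and 11264 RNA reads. It lay inside a low domain with a single neighbour within 100 kb, of mPGK-E, at 1.30. The reporter of mPGK-C at 122288912 (barcode tgattggctaatccta, plus strand) was at 4.86 and 5.32, or 34.1-fold above the median. It lay in the longest high domain, with a single neighbour within 100 kb, of mPGK-F, at 1.93. It was the highest of an unbroken run of 10 reporters of 5 pools above the median (chr6:121320457-122702116), all 10 called higher, with a mean of 2.82. The 15 reporters more than 16-fold above their pool median were spread over 6 high and 3 low domains. Those in low domains were the one at 71222500, that of mPGK-E at 7646972 and that of mPGK-E at 128409759, which was at 4.71.

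At the other end, 12 reporters had no RNA read in either culture, and the 5 of these with the most DNA reads are given here. Their folds are bounds, computed as if 3 RNA reads had been seen in the cultures together, and cover counting error only. The reporter of mPGK-B at 129559426 had 2556 and 1809 DNA reads and lay at least 538-fold lower than the median of mPGK-B. That of mPGK-B at 14440305 had 2010 and 1134 DNA reads and lay at least 388-fold lower. These are the silent reporters of the chromosome with the most DNA reads, and both lie in low domains. A bound grows with the DNA reads, so the bounds do not rank the expression of silent reporters. The reporter of mPGK-F at 143745159 (1236 DNA reads, at least 157-fold lower) and that of mPGK-C at 86362611 (1136 DNA reads, at least 137-fold lower) lie in high domains. The reporter of mPGK-E at 24783062 (1116 DNA reads, at least 128-fold lower) lies in the longest low domain. Silent reporters were therefore found in both kinds of domain.

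Where a high and a low domain adjoined, the running median could cross 0 between reporters a short distance apart. There were 13 such edges. The steepest lay between 82385358 and 82572304, a distance of 187 kb. The last 11 reporters of the low domain had a mean of -2.80 ± 1.64 (SD) and the first 11 of the high domain one of 1.31 ± 1.18, a step of 4.11 log2 units or 17.3-fold. On the low side 1 of 11 lay above 0, and on the high side 10 of 11, with all 6 pools on both sides. The whole high domain, given above as the least settled of the long ones, had a mean of only 0.34 over 21 reporters. At the end of the longest low domain the running median crossed 0 between 28557761 and 28579614, 21.9 kb apart. The means were -2.14 ± 2.31 before this edge and 0.63 ± 1.75 after it. Within that domain, the reporters at 28554272 (-0.07) and 28557761 (0.09) were already near their pool medians. Its longest unbroken run below the median ended at 28112754. Between 95058007 and 95075746, 17.7 kb apart, the mean fell from 1.18 ± 1.45 to -1.47 ± 1.31. The fourth by size lay between 137817177 and 138209035, 392 kb apart, with a step of -2.32. The other 9 edges had steps between -1.85 and 1.55. At 112920055, where a low domain gave way to a high one, the mean went from -0.09 to -0.27, a step of -0.17 against the change of the running median. An edge is placed where the running median crosses 0, so a step in the direction of the change is partly built in. The running median takes in 11 reporters, so an edge is not located as finely as the distance between its flanking reporters.

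**Figure D3:**
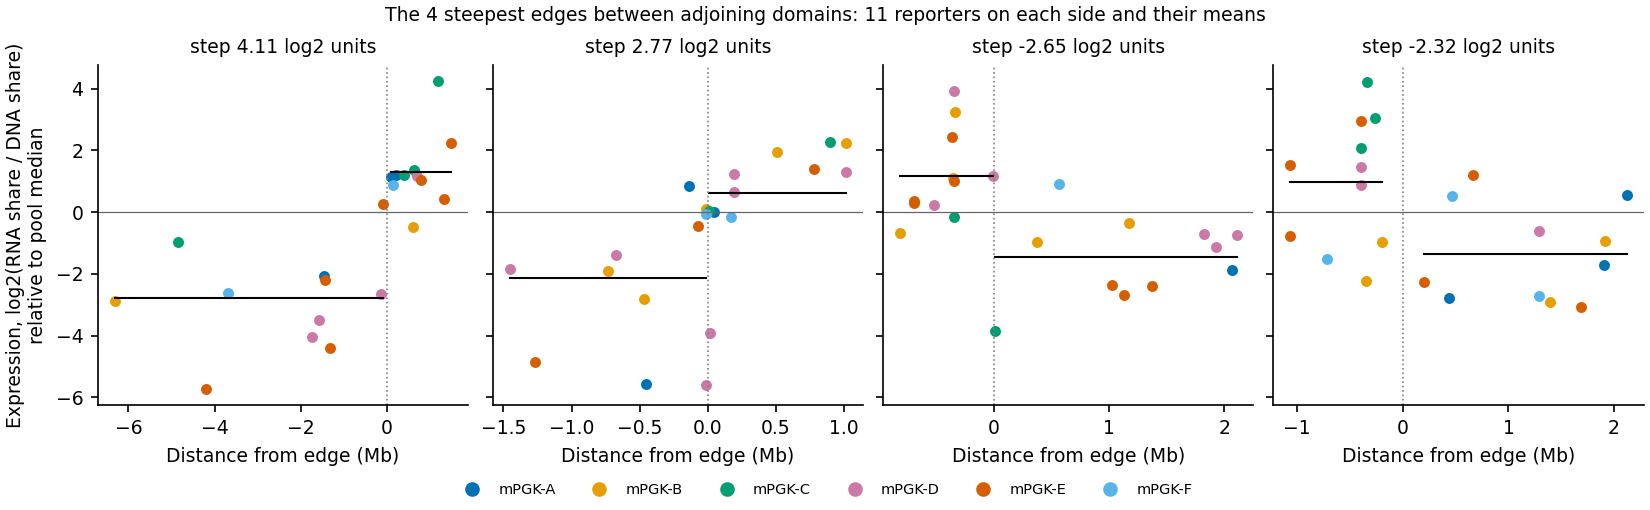
Expression of 11 reporters on each side of the 4 steepest edges between adjoining domains, against the distance from the midpoint of the edge in Mb, with points coloured by pool and horizontal lines at the means. The panels show steps of 4.11, 2.77, -2.65 and -2.32 log2 units, and the 11 reporters left of the first edge stretch over 6227 kb.

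The longest unbroken runs on one side of the pool median lay below it. The chromosome held 183 runs above the median and 184 below it. Runs of at least 8 reporters numbered 8 above and 11 below. Runs were drawn from the same values as the calls, so the direction of the calls within a run was fixed in advance. The longest run below held 28 reporters of all 6 pools over 4199 kb (chr6:23913547-28112754), at a mean of -2.53, and 20 of them were called lower. The next held 17 over 9145 kb (chr6:73186952-82332098) at a mean of -3.27, with 14 called lower. A run of 16 at chr6:18902957-22388955 and another of 16 at chr6:102268128-106576897 followed, at means of -2.41 and -3.35, also with reporters of all 6 pools. The first and the third of these runs lie in the same low domain. The longest run above the median held 13 reporters of all 6 pools within 276 kb (chr6:142839222-143114879) at a mean of 2.13, with 10 called higher. Runs of 11 reporters lay at chr6:51971973-52261917 (290 kb, mean 1.47, 4 pools) and chr6:124904635-125438810 (534 kb, mean 2.22, 5 pools). These 3 runs were compact, but the run of 10 around the reporter at 122288912 covered 1382 kb, close to the 1404 kb of a run of 11 below the median at chr6:146861627-148266036.

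Gaps without any reporter fell mostly inside low domains. The median distance between neighbouring reporters was 66.1 kb and the mean was 147 kb, and 40 neighbouring pairs lay under 1 kb apart. At least 1 Mb separated 18 pairs, and these gaps summed to 25.1 Mb or 17.2% of the span. Over the 19 autosomes that share ran from 5.68% to 27.9% with a median of 12.6%, and chromosome 6 had the second highest. The widest gaps were 1.95 Mb between 78787632 and 80736535, 1.83 Mb between 74303231 and 76129202, 1.81 Mb between 8681648 and 10490585, 1.78 Mb between 56802201 and 58580931 and 1.76 Mb between 129560366 and 131319062. The next 5 measured 1.57, 1.54, 1.47, 1.31 and 1.25 Mb. All 10 lay in low stretches, and the 2 widest lie in the same domain, chr6:72661650-82385358, together with gaps of 1.47 and 1.17 Mb.

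The reporters that border the gaps were low. Both borders lay in low stretches at 15 gaps and in high stretches at 3, and at none did they differ. A stretch is set by the running median, which shares most of its reporters between neighbours, so this agreement was largely built in. The expression of the borders themselves lay on opposite sides of the pool median at some gaps. An example is the gap between 8681648 and 10490585, with borders at 0.84 (mPGK-D) and -2.48 (mPGK-E). The 35 bordering reporters had a median of -1.84, against -0.08 for the other reporters of the chromosome. Of these 35, 27 lay below their pool median, 22 were called lower and 5 higher. Of all 991 reporters of the chromosome, 520 lay below the median, 36.9% were called lower and 34.7% higher. Over all chromosomes 33.7% were called lower and 36.9% higher. The borders of the widest gap were at -2.60 (mPGK-F) and -4.06 (mPGK-D), and those of the next at -2.45 (mPGK-C) and -5.40 (mPGK-A). The gap of 1.07 Mb between 89237028 and 90310354 was the only one of the 18 with reporters called higher on both sides, both of mPGK-F, at 3.14 and 2.69. With fewer pools the gaps were 19 to 22 in number, and a minimum of 0.5 Mb gave 62. How well reads can be mapped within the gaps was not tested, nor was any other cause of them.

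Reporters with many neighbours lay above reporters on their own in every pool. The 397 reporters with at least 3 others of any pool within 100 kb had a mean of 0.61, and the 178 with none had a mean of -1.40. The difference of pool means was 2.00 (mPGK-A), 1.94 (mPGK-B), 1.73 (mPGK-C), 2.51 (mPGK-D), 1.77 (mPGK-E) and 2.18 (mPGK-F). It had the same sign in 6 of 6 pools, with a mean of 2.02 ± 0.29 (SD, n = 6 pools), or 4.06-fold. In the exact two-sided sign-flip permutation test over pools p was 0.031, the smallest that 6 pools allow. It was 0.094 after adjustment over the 3 comparisons of this kind, so it did not pass the threshold of 0.05. At 6 pools a single comparison of the 3 at the smallest p could not have passed, so the adjusted test cannot decide here. Median DNA reads were 1664 in the first set and 1632.5 in the second. Means for 0, 1, 2, 3, 4, 5, 6 and at least 7 others were -1.40, -0.78, -0.52, 0.38, 0.25, 1.12, 0.58 and 1.20. The order was not strict, and the sets with 5 and more others held 90, 43 and 36 reporters. Of the reporters without others 55.6% were called lower, and of those with at least 7 it was 8.33%. Neighbouring reporters share a stretch of chromosome, so they are not independent of each other.

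**Figure D4:**
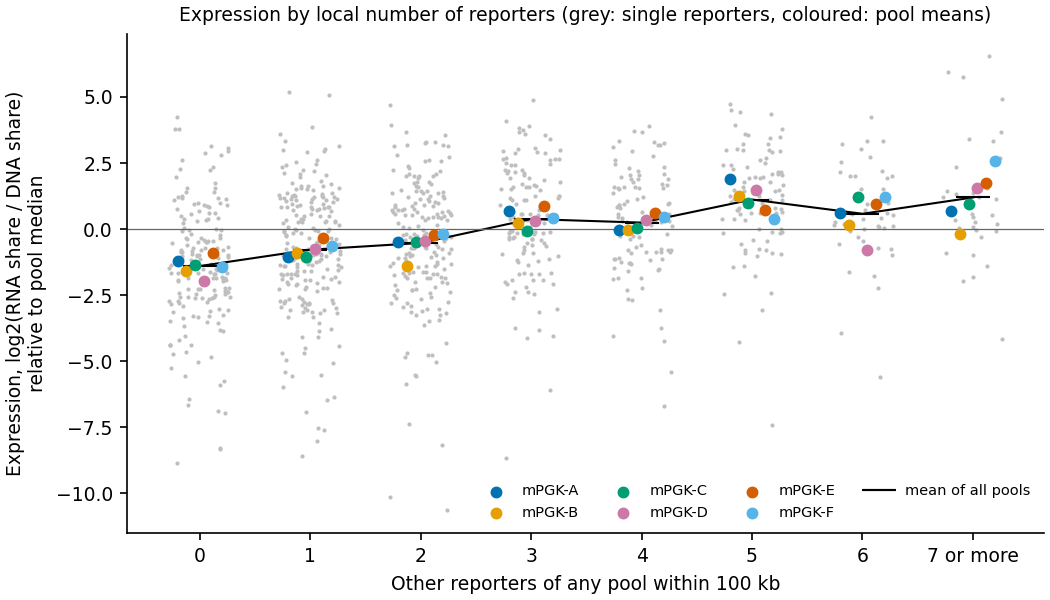
Expression against the number of other reporters of any pool within 100 kb, with single reporters in grey, pool means as coloured points and the mean of all pools as a line. The line goes from -1.40 at 0 others to 1.20 at 7 or more, and the 6 pool means at 0 others all lie below 0.

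In 15 fixed segments of 10 Mb, whose bounds do not depend on expression, 5 differed from the rest of the chromosome in the same direction in all 6 pools. The segment from 10 to 20 Mb was lowest, with 46 reporters and a difference of -1.69 ± 0.71 (SD, n = 6 pools). In it 32 reporters (69.6%, against 33.7% over all chromosomes) were called lower and 6 (13.0%, against 36.9%) higher. The segment from 20 to 30 Mb, with 70 reporters, differed by -1.19 ± 0.53. The segment from 30 to 40 Mb, which has the most reporters (112), was higher by 1.02 ± 0.50. Those from 90 to 100 Mb and from 130 to 140 Mb were higher by 0.57 ± 0.45 and 0.84 ± 0.74. Each of the 5 had p = 0.031 in the exact two-sided sign-flip permutation test, the smallest possible, and 0.094 after adjustment over the 15 segments. None passed the adjusted threshold (0 of 15), which at 6 pools would have needed 10 segments at the smallest p, and 5 of 15 (33.3%) passed without adjustment. With a pseudocount of 5 RNA reads in place of 0.5, the segments from 90 to 100 Mb and from 130 to 140 Mb no longer had the same sign in all pools.

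The other 10 segments varied between pools. The segment from 70 to 80 Mb held the fewest reporters, 27, and differed by -1.04 ± 1.03, with mPGK-A alone above 0 (0.55) and mPGK-B lowest (-2.56, 3 reporters). The segment from 0 to 10 Mb differed by -0.68 ± 0.69, below 0 in 5 of 6 pools. Segments from 80 to 90 Mb and from 120 to 130 Mb were higher in 5 of 6 pools, by 0.62 ± 0.83 and 0.67 ± 0.81. The segment from 100 to 110 Mb was below the rest in 5 of 6 pools, with a difference of -0.65 ± 0.78. In the remaining 5 segments (40 to 50, 50 to 60, 60 to 70, 110 to 120 and 140 to 150 Mb) the mean differences lay between -0.43 and 0.07, smaller than their SD over pools. The largest exact p-values, 0.78 and 0.72, were those from 140 to 150 Mb and from 50 to 60 Mb.

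**Figure D5:**
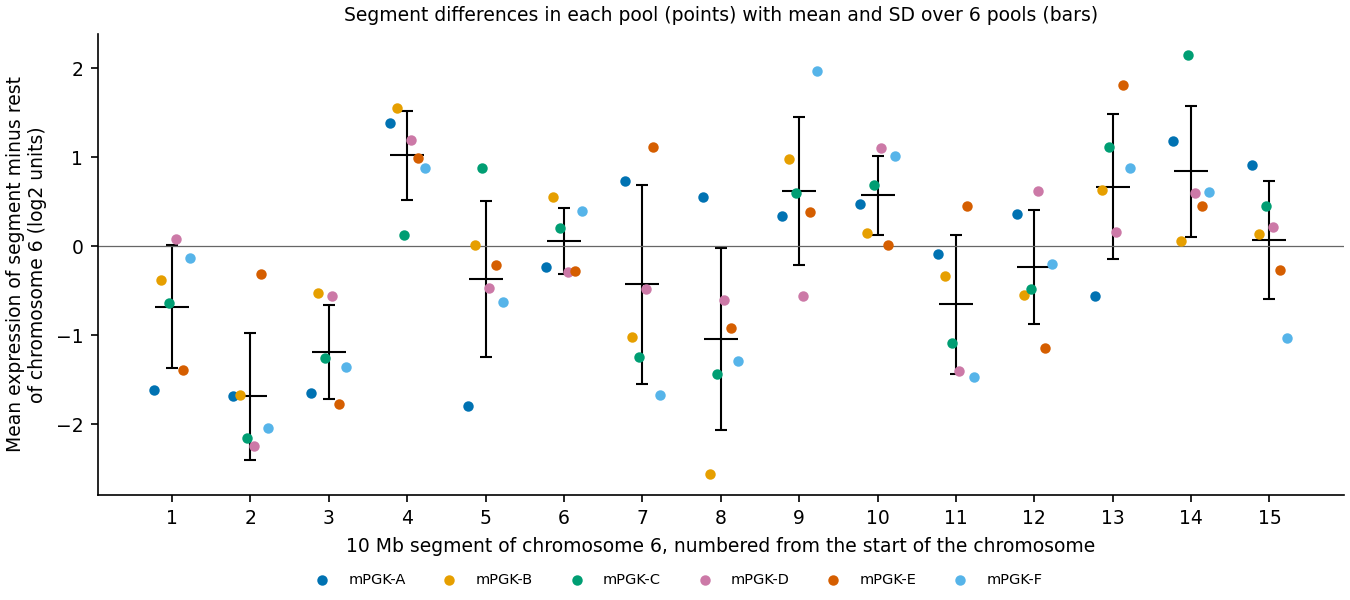
Difference in mean expression between each of the 15 segments of 10 Mb and the rest of chromosome 6, in log2 units, with a point for each pool and bars for the mean and SD over the 6 pools. Segments 2 and 3 lie below 0 and segments 4, 10 and 14 above 0 in every pool.

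Domains drawn without a pool carried over to the reporters of that pool. For each pool, domains were drawn from the other 5 pools, and the left-out reporters falling in high domains were compared with those in low domains. High minus low was 1.29 (mPGK-A), 1.52 (mPGK-B), 1.58 (mPGK-C), 1.51 (mPGK-D), 1.70 (mPGK-E) and 1.01 (mPGK-F). The difference was positive in 6 of 6 pools, with a mean of 1.43 ± 0.25 (SD, n = 6 pools), or 2.70-fold. On average over pools 62.5% of left-out reporters in high domains lay above the median and 66.6% of those in low domains lay below it. This comparison was added after the values had been seen, and its domains share 4 pools from one left-out pool to the next, so it is given without a test.

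Sharp contrasts between near neighbours also occurred. Of the 110 pairs from different pools within 5 kb of each other, 8 (7.27%) were at least 16-fold apart. No share for pairs further apart is given beside it. The reporters of mPGK-A at 39350093 and of mPGK-D at 28553312 occur repeatedly among these 8 pairs, which are therefore not independent. The closest lay 77 bp apart on the same strand: the reporter of mPGK-E at 50788996 was at 1.05 and 0.40 in the cultures, and that of mPGK-F at 50789073 at -4.72 and -4.93, a 46.8-fold difference. The latter had 3156 DNA reads and 42 RNA reads in all. At 940 bp, the silent mPGK-B reporter at 129559426 lay beside one of mPGK-E at 129560366 that was low too, at -2.05 and -1.98, and this second reporter borders the gap of 1.76 Mb. At 960 bp, beside the edge of the longest low domain, a reporter of mPGK-D at 28553312 was at -3.97 and -7.22 on 5 RNA reads and one of mPGK-F at 28554272 at 0.01 and -0.15. At 968 bp a reporter of mPGK-C at 94723369 was at -0.36 and 0.04 and one of mPGK-D at 94724337 at 4.05 and 3.82, a 17.1-fold difference. With the pair 492 bp apart at the highest reporters these are the 5 closest. In 4 of these 5 pairs the lower member had at most 42 RNA reads but at least 154 DNA reads.

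At 4 places a pair of reporters lay 1 bp apart on opposite strands. In mPGK-A, the reporter at 143092751 on the minus strand was at 0.78 and 1.17, and that at 143092752 on the plus strand at 4.37 and 4.49, a 10.95-fold difference between single integrations. In mPGK-E, the reporters at 13558701 (minus) and 13558702 (plus) were at 3.60 and 2.79 and at 1.51 and 1.30. Between pools, the reporters at 94724337 (mPGK-D, minus) and 94724338 (mPGK-E, plus) were at 4.05 and 3.82 and at 0.88 and 1.16, or 7.54-fold apart. Those at 120059513 (mPGK-E, minus) and 120059514 (mPGK-B, plus) were at 2.22 and 1.95 and at 0.91 and 1.62. In 3 of these 4 pairs the reporter on the minus strand was the higher one, and all 8 reporters lay above their pool median.

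Likeness between neighbours faded with distance. The Pearson correlation of expression over pairs of reporters was 0.33 for pairs up to 1 kb apart (44 pairs), 0.51 from 1 to 5 kb (86), 0.39 from 5 to 20 kb (208) and 0.37 from 20 to 50 kb (333). It was 0.27 from 50 to 100 kb (524 pairs), 0.23 from 100 to 200 kb (891), 0.13 from 200 to 500 kb (2430), 0.08 from 500 to 1000 kb (3745) and 0.05 from 1 to 5 Mb (28065). With pairs from different pools alone, which share no library, the values were 0.33, 0.51, 0.35 and 0.38 in the 4 shortest classes. On the other chromosomes they were 0.43, 0.43, 0.37 and 0.29. Without mPGK-B the value was 0.20 up to 1 kb and 0.05 from 500 to 1000 kb. A reporter enters many pairs, so these are descriptions across reporters, and the shortest class holds few pairs.

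The mean of chromosome 6 did not differ from that of the other chromosomes beyond the spread between pools. Chromosome 6 minus the rest was -0.18 (mPGK-A), -0.52 (mPGK-B), -0.04 (mPGK-C), -0.18 (mPGK-D), 0.27 (mPGK-E) and 0.01 (mPGK-F), a mean of -0.11 ± 0.26 (SD, n = 6 pools). It was -0.03 without mPGK-B, -0.18 without mPGK-E and -0.22 without the reporters in the lowest 10% of DNA counts. The exact two-sided sign-flip permutation test gave p = 0.44 (0.66 adjusted over the 3 comparisons). Without the domain of the highest reporters, an alternative added after the values had been seen, the mean difference was -0.20. Leaving out the domain with the highest mean could only lower the difference, so the direction of this change was fixed in advance. The 481 reporters on the plus strand and the 510 on the minus strand differed by -0.05 ± 0.32 (plus minus minus, SD, n = 6 pools), with 3 pools on each side of 0 (exact permutation p = 0.72, adjusted 0.72).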

How the data were processed

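The authors deposited 1 table with raw counts of DNA reads and RNA reads per barcode, pool and culture, with mm9 positions. It stands for 72 libraries, 12 per pool, from 2 PCRs a culture. The aligner was Bowtie2 2.0 and the build mm9, per the submitters' processing notes. Not given in the sources used here are how PCRs were combined, which barcodes were kept and the base that positions count from, so positions may be off by 1 base. All 4 count columns were used. Shares are of the listed barcodes, not of whole libraries.

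Expression was log2 of RNA share over DNA share with a pseudocount of 0.5 RNA reads, which sets the level of reporters with few RNA reads. Counts were compared with edgeR 4.0.16 in R 4.3.3 per pool (TMM, shifted to the pool median; filterByExpr removed no barcode), and with DESeq2 1.42.0 as an alternative. Culture numbers pair RNA and DNA of the same culture, per the labels; their deviations had correlations of -0.0021 to 0.0575 across barcodes. Single comparisons used exact sign-flip permutation tests over 6 pools, with Benjamini-Hochberg adjustment. Other values used Python 3.11.15, numpy 2.4.6, scipy 1.17.1 and pandas 2.3.3. The tests were tested on simulated data. No mm9 annotation was used here, so genes at the reporters are not named, and the planned comparison inside and outside genes was not run.

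Named items were all 15 segments, the 5 longest domains on each side, the 3 longest runs in each direction, the 10 widest gaps, the 5 highest and 5 lowest reporters and the 5 closest unlike pairs. Other items, such as the same-site pairs, were chosen after their values were seen. The members and lists were chosen with earlier results of these data known. Alternatives were a pseudocount of 5, leaving out low DNA counts, a culture or a pool, barcodes of several pools used once, medians, other segments, windows and gaps, and other count models.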

Additional observations from a re-analysis of the deposited data

Results flagged for a closer look

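In the segment from 10 to 20 Mb, 1 pool stood apart from the others. The segment was -0.31 relative to the rest of chromosome 6 in mPGK-E (8 reporters), and the nearest other pool was at -1.67. The gap to that pool was 0.70 of the whole range over 6 pools, above Dixon's critical value of 0.625. Of 29 groups of pool values examined, this was the 1 past that value, and chance flags about 1 in 20 groups. Without mPGK-E the segment was -1.96 relative to the rest.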

How the results depend on the processing

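The results recomputed under the alternatives kept their direction and their side of the threshold, with the exceptions given here. The strand difference changed sign with barcodes of several pools used once (0.026) and with medians (0.021), and ran from -0.13 to 0.059 when single pools or cultures were left out. Dense minus sparse kept its sign in all settings. It ran from 1.79 to 2.08 with single pools or cultures left out and was 2.16 within 500 kb, where 5 pools remained, and 5 pools allow no exact p below 0.0625. The same limit holds for the 5 segments of 1 sign. Without replicate 1 the segment from 90 to 100 Mb lost its common sign (0.53), and without replicate 2 that from 0 to 10 Mb gained one (-0.66). The segment from 140 to 150 Mb changed sign without mPGK-A (-0.10, the lowest) or mPGK-C (-0.0097) and reached 0.29 without mPGK-F, and that from 50 to 60 Mb changed sign without mPGK-B (-0.040) or mPGK-F (-0.0085) and reached 0.13 without mPGK-D. The domain from 82572304 to 86362611 changed sign without mPGK-E (-0.024; up to 0.84 without mPGK-C) and without the lowest 10% of DNA counts (-0.15). Gaps of at least 0.5 Mb numbered 62 in place of 18. Segments of 1 sign in all pools numbered 3 with a pseudocount of 5 and 9 with segments of 5 Mb, 1 of which (75 to 80 Mb) held reporters of only 5 pools. The longest low domain held 62 reporters without replicate 1 and 44 with a running median of 7, and the longest high one 88 with a running median of 21. The level of the reporter at 71222500 was 5.42 without replicate 1 and 4.92 without replicate 2, and that at 39395836 was 5.74 with a pseudocount of 5. The cause of these changes was not tested.

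With the culture number as a replicate block, edgeR called 339 reporters higher and 354 lower, in place of 344 and 366. TMM without the shift gave 297 and 409, DESeq2 size factors 318 and 391, and DESeq2 345 and 360. With single pools left out, 267 to 294 were higher and 296 to 323 lower. Reporters with few RNA reads have the widest error, and levels near 0 reads depend on the pseudocount.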
